A study of Danio rerio with 20 samples.

Results

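Zebrafish leukemias with transcripts of the T-lymphocyte lineage were compared with leukemias carrying transcripts of the B-lymphocyte lineage. The first set was the 8 tumors labelled as high in self-renewal, that is, in the capacity to start a new leukemia: 8.4.1.1.1, 14.1.1.1, 4.3.1, 8.3, 2.1, 15.2, 13.1.1 and 7.2.1. The second was the low tumors 9.2 and 10.2. By the text of the series there were 6 high and 5 low tumors, which are not listed there by title, so the labels were followed and the membership of the groups is to that extent uncertain. The labels also call tumor 12.2 low, but it was left out because its RNA held transcripts of both lineages. The tumors were thus chosen by measured levels of T-cell and B-cell transcripts, and the grouping itself rests on the self-renewal labels. Every T-lineage tumor here was labelled high and both B-lineage tumors low. Differences by lineage and by self-renewal therefore cannot be told apart in this comparison. The comparison used 18 of the 20 libraries and 10 of the 11 tumors of the study. All tumors came from fish of the CG1 strain, with blood as the cell type and leukemia cell pellets as the source. The labels name no lineage, age, driver oncogene or treatment for any tumor, and whether each tumor came from its own fish is not stated, so p-values reflect only how far these tumors spread. Tumors 8.3 and 8.4.1.1.1 share a first title number and may be related. RNA was polyadenylated, and bulk libraries were sequenced on an Illumina HiSeq 2000. The series text calls the paired libraries of a tumor biological replicates, and here they were summed because they share a tumor title. Tumors 8.4.1.1.1 and 14.1.1.1 had 1 library each.

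Lymphocytes of both lineages arise from progenitors that rearrange antigen receptor genes with the recombination-activating enzymes. T-cell precursors mature in the thymus, guided there by chemokine receptors and integrins, and signal through a receptor coupled to the kinases Lck and Zap70. B-cell precursors mature in the marrow or, in fish, the kidney, under the transcription factors Ebf1 and Pax5, and signal through immunoglobulin coupled to Cd79a, Cd79b, Syk and Blnk. Leukemias keep much of the transcription of the lineage in which they arise.

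The summed counts were lowest in tumor 14.1.1.1 (11573276) and highest in tumor 8.3 (32466048), with 27432733 in 9.2 and 28727277 in 10.2. Levels are given as log2 CPM, the log2 of the CPM after scaling for library composition, with a prior count of 2. A gene with no count stands at -3.46 on this scale. A principal component analysis of the 10 tumors placed 9.2 and 10.2 at 168.8 and 164.6 on the first component, which held 34.93% of the variance, and the high tumors between -60.18 and -14.1. Tumor 12.2, projected afterwards, lay at 74.96. Tumor 8.3 stood apart from the other high tumors on the second component, which held 15.58%, at -144.5 against -45.98 to 47.41. Markers of other cell types were low or overlapped between groups. Genes of neutrophils and macrophages summed to 497.5 to 2199 CPM in the high tumors, 453.4 in 9.2 and 873.2 in 10.2. Natural killer cell genes summed to 11.36 to 105.7, 0.484 and 0.984, red cell genes to 111.1 to 401.7, 344.5 and 348.9, and thrombocyte genes to 1.9 to 25.3, 5.36 and 5.36. Endothelial genes summed to 13.97 to 51.18, 34.71 and 15.2. Every one of the 10 tested natural killer genes stood at -2.13 or lower in both low tumors. Over the 22 matched members the mean log2 CPM was low in the high tumors too, at -2.38 to -0.28. Among the members, il2rb, sh2d1ab, tbx21 and EOMES are also on the T-cell list, so this list is not separate from the T-lineage genes. In bulk RNA, fewer cells of a type and less RNA per cell cannot be told apart.

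The lineage genes are given as levels with no test, because they served to choose the tumors compared and to set 12.2 aside. The coreceptor gene cd8a had a lowest, median and highest log2 CPM of 7.35, 7.82 and 8.40 in the high tumors, and stood at -1.75 in 9.2 and -2.0 in 10.2. The thymocyte nuclear receptor gene rorc had 6.54, 8.22 and 8.53 in the high tumors, with -1.75 and -1.68 in 9.2 and 10.2. No high tumor overlapped a low one in these genes. Over the T-cell list both low tumors lay below every high tumor in 28 of 39 tested genes and above in 1. Over all genes tested, both low tumors lay below in 9.77% and above in 8.90%. Over the B-cell list both lay above every high tumor in 17 of 31 and below in 2, BACH2 (ENSDARG00000004074) and MEF2C (ENSDARG00000029764, a shared symbol). For BACH2 the levels were 6.46 to 7.59 in the high tumors, 6.10 in 9.2 and 6.23 in 10.2, so not all B-lineage genes were high in the low tumors. Of the 3 examples that follow, ighd was chosen after its values were seen, and other members of the list had larger contrasts. The transcription factor gene BCL11A (ENSDARG00000061352) lay at -3.46, -2.50 and -2.21 in the high tumors, and at 5.05 in 9.2 and 5.57 in 10.2. The octamer-binding factor gene pou2f2b had -2.50, -0.82 and 0.31, with 5.53 and 5.92. The immunoglobulin delta gene ighd had -2.85, -2.16 and -0.23, with 6.56 and 5.83. Tumor 12.2 stood at 5.82 for cd8a and 5.42 for rorc, at 2.22 for pou2f2b, and among the high tumors for BCL11A (-3.46) and ighd (-2.70). These 3 B-lineage examples do not stand for the list in 12.2. Over the 36 matched B-cell genes its mean log2 CPM was 2.49, above the 0.02 to 1.37 of the high tumors. The same mean was 3.62 in 9.2 and 4.0 in 10.2.

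The low tumors were not equal in T-lineage transcripts. Of the 18 T-cell list genes with a log2 CPM of at least 1 in either low tumor, 9 were at least 4-fold higher in 10.2 and 2 were at least 4-fold higher in 9.2. Examples here were chosen after their values were seen. The adaptor gene skap1 stood at 4.74 in 10.2 and -3.0 in 9.2, against 7.33 to 8.38 in the high tumors. The gene lck, which encodes the first kinase of the receptor, stood at 3.74 in 10.2 and -0.23 in 9.2, against 8.95 to 10.26. The receptor chain gene cd247 stood at 3.06 and -1.75, against 6.24 to 7.53. In all 9 genes tumor 9.2 was below every high tumor, and in none was 10.2 above every high tumor. Tumor 12.2 was nearer to 10.2 than to 9.2 in all 9, beside 72.4% of all genes 4-fold higher in 10.2. Because 12.2 was set aside for carrying T-lineage transcripts, nothing is concluded from its nearness in these genes. The mean log2 CPM over the 18 genes was 1.23 in 9.2, 3.56 in 10.2 and 5.4 in 12.2, against 6.32 to 7.4 in the high tumors. These 18 genes were kept by their level in 9.2 or 10.2, which bears on the gap between the 2. Over all 42 matched genes of the list the mean was -0.86 in 9.2, 0.2 in 10.2 and 2.6 in 12.2. The high tumors had 3.92 to 5.19 on that measure. Tumor 10.2 thus also held transcripts of some T-lineage genes, at a lower mean level than 12.2. The gap to 12.2 varied by gene. It was small for ZAP70 (7.24 in 10.2 and 7.58 in 12.2), bcl11ba (6.14 and 6.39) and TCF7 (5.73 and 5.95). It was wide for lck, at 3.74 and 8.08. The members higher in 9.2 were cd28 (3.41, with 0.97 in 10.2) and the related cd28l (3.73 and 1.29), whose products costimulate T cells. The B-cell list differed less between the low tumors. Of 28 genes, 3 were at least 4-fold higher in 10.2 (10.7%, beside 6.6% of all genes) and 0 in 9.2. The immunoglobulin heavy chain gene ight was not matched to this list. It stood at 4.56 in 9.2 (680 counts) and -3.03 in 10.2 (1 count), so a B-lineage gene outside the list was far higher in 9.2.

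Across the genome, 16850 genes passed the filter on low counts and were tested with edgeR's quasi-likelihood test and Benjamini-Hochberg adjustment over all of them. At an adjusted p under 0.05, 604 genes were called higher in the high tumors (3.58% of those tested) and 645 were called lower (3.83%). Of these, 471 and 515 differed by 4-fold or more. Both low tumors lay beyond the range of the 8 high tumors in 1195 of the 1249 called genes (95.7%). Over all tested genes this held for 3147 (18.7%), of which 1500 had both low tumors above and 1647 had both below. A call favours genes in which both low tumors stand apart from the high tumors, so the 95.7% is largely set by the calling. The counts rested on having both low tumors: without 9.2 they were 260 higher and 417 lower, and without 10.2 they were 317 and 392. Of the genes called with both, 220 higher and 318 lower genes remained without 9.2, and 246 and 329 without 10.2.

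Leaving out the mixed tumor changed which genes were called. With 12.2 among the low tumors, 641 genes were higher and 832 lower; 412 and 517 genes were in both sets. Those called only without 12.2 numbered 192 and 128, and those called only with it 229 and 315. Among the 604 higher genes, 12.2 lay on the side of the high tumors in 150, on the side of the low tumors in 119 and between them in 335. Among the 645 lower genes the numbers were 183, 219 and 234, and in the other 9 it lay within both ranges. A gene such as RASA4, described next, was thus placed by 12.2 between the groups.

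The genes outside the lineage lists with the smallest p-values and higher levels in the high tumors were genes of signalling and adhesion. RASA4 (ENSDARG00000029372), a GTPase-activating protein that turns Ras off, had 8.67, 8.98 and 9.36 log2 CPM (lowest, median and highest) in the high tumors, -0.63 in 9.2 and -0.99 in 10.2. Its log2 fold change was 10.06 ± 0.42 (SE, n = 8 and n = 2 tumors; edgeR adjusted p = 6.95e-07), with 9.86 to 10.27 when each tumor was left out in turn. The groups were far apart, and the high tumors spanned less than 1 log2 unit. Tumor 12.2 had 5.35. CBLB (ENSDARG00000015199), a ubiquitin ligase that restrains T-cell activation in mammals, had 7.84, 8.34 and 8.80, with 1.94 and 2.33 in 9.2 and 10.2 (6.28 ± 0.42, edgeR adjusted p = 1.01e-05). The groups did not overlap, and 12.2 stood between them at 6.24.

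DEF6 (ENSDARG00000044524) encodes a GTPase exchange factor that acts below the T-cell receptor in mammals, and another identifier shares its symbol, so its level is uncertain. It had 7.68, 8.09 and 9.20 log2 CPM, with -1.44 in 9.2 and -1.54 in 10.2, a difference of 10.14 ± 0.68 (edgeR adjusted p = 1.01e-05). The adhesion molecule gene CDH2 (ENSDARG00000018693, N-cadherin) had 6.72, 8.01 and 8.30, with -1.75 and -1.68 (10.10 ± 0.61, edgeR adjusted p = 5.8e-06). Its lowest high tumor was 8.3. The receptor gene igflr1 (ENSDARG00000091650), of the tumor necrosis factor receptor family, had 7.03, 7.84 and 8.26, with -1.92 and -2.0 (10.37 ± 0.56, edgeR adjusted p = 2.09e-06). For il12rb2 (ENSDARG00000052157), a chain of the interleukin-12 receptor, the levels were 5.40, 6.04 and 6.58, with -1.75 and -0.90 (7.65 ± 0.56, edgeR adjusted p = 1.77e-05; 7.21 without 9.2 and 8.29 without 10.2). All 6 genes stayed called whichever tumor was left out, and 12.2 lay between the groups in each.

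Several genes higher in the high tumors had next to no count in the low tumors. Pooled over tumors, cyld2 (ENSDARG00000089724) had 9447 counts against 0. Setting 3 counts, summed over 9.2 and 10.2, as the floor made it at least 1191-fold higher. Its levels were 4.58, 6.2 and 6.80 log2 CPM in the high tumors and it stayed called whichever tumor was left out. ZMAT4 (ENSDARG00000092987), a zinc finger gene whose symbol another identifier shares, had 12500 counts against 2, which after scaling for depth was a 2364-fold ratio (95% exact Poisson interval 654.3 to 19520). LRRN1 (ENSDARG00000060115), a leucine-rich repeat membrane protein of neurons, had 12260 against 1, a ratio of 4637 (832.1 to 183200). The bone morphogenetic protein receptor gene bmpr1ba (ENSDARG00000104100) had 3125 against 0, at least 394-fold higher on the same floor, and VSTM2A (ENSDARG00000021909), an immunoglobulin-domain gene, 1815 against 0, at least 228.8-fold higher. Floors and intervals cover counting error only. The high tumors were spread widely for LRRN1 (2.70 to 7.82), bmpr1ba (2.16 to 6.2) and VSTM2A (-0.23 to 4.90). The calls of these last 3 were lost without 9.2 or 10.2.

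Genes lower in the high tumors included a protein-modifying enzyme, a transcription elongation factor, an opsin and adhesion molecules. ZDHHC2 (ENSDARG00000034757), a palmitoyltransferase that attaches lipid to proteins, had -3.46, -2.83 and -2.15 log2 CPM in the high tumors, 7.60 in 9.2 and 6.32 in 10.2. Its log2 fold change was -11.01 ± 0.59 (edgeR adjusted p = 2.09e-06; -11.52 without 10.2 and -10.26 without 9.2). MLLT3 (ENSDARG00000006754), a subunit of the super elongation complex and a fusion partner in human leukemia, had -3.03, -2.11 and -1.37, with 7.24 and 4.69 (-9.10 ± 0.62, edgeR adjusted p = 1.02e-05; -7.30 without 9.2). The opsin gene valopa (ENSDARG00000021150), of a photopigment of the deep brain, had -2.50, -1.65 and 0.03, with 8.16 and 6.97 (-9.32 ± 0.60, edgeR adjusted p = 8.88e-06). In these 3 genes tumor 9.2 stood above 10.2, and both stood above every high tumor.

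A pair of cell adhesion genes showed the opposite order of the low tumors. CDH15 (ENSDARG00000068191, M-cadherin, known from muscle) had 3479 counts in 9.2 and 10.2 together against 3 in the 8 high tumors, a 3066-fold ratio with an exact 95% Poisson interval of 1048 to 14880, with 4.71 log2 CPM in 9.2 and 6.44 in 10.2. The L1-family gene chl1a (ENSDARG00000077881) had -3.46, -3.14 and -2.50 in the high tumors, 4.40 in 9.2 and 5.83 in 10.2 (-9.84 ± 0.72, edgeR adjusted p = 1.77e-05). Tumor 12.2 did not share these levels, with -3.46 for CDH15 and -2.70 for chl1a. It also stood at -1.10 for ZDHHC2, -3.46 for MLLT3 and -0.76 for valopa. These genes were thus high in 9.2 and 10.2 and low in 12.2.

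Among the further genes with the largest fold changes, some were carried mainly by one low tumor. TLR7 (ENSDARG00000068812), an endosomal receptor for single-stranded RNA, had 7.12 log2 CPM in 10.2, 0.26 in 9.2 and -3.46 to -2.43 in the high tumors. It had a ratio of 3877 in pooled counts (1326 to 18810), and its log2 fold change of -11.47 ± 1.24 (edgeR adjusted p = 0.000220) became -5.48 without 10.2. FARP2 (ENSDARG00000016429), a GTPase exchange factor, had 7.51 in 9.2 and 3.53 in 10.2, with -3.46 to -1.78 in the high tumors (-10.26 ± 0.88, edgeR adjusted p = 4.06e-05; -7.23 without 9.2). LRP1B (ENSDARG00000004789), a lipoprotein receptor gene with a shared symbol, had 9.07 in 9.2 and 1.78 in 10.2, and was not called without 9.2 (-3.69). The hormone gene gip stood at 3.75 in 9.2 and 4.02 in 10.2, with 2 counts over the high tumors. The kinesin adaptor gene sybu stood at 3.73 and 4.74, with 3 counts. The amino acid transporter gene slc7a2 stood at 1.02 in 9.2 and 3.95 in 10.2, with 1 count over the high tumors. All but LRP1B stayed called whichever tumor was left out.

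**Figure D1:**
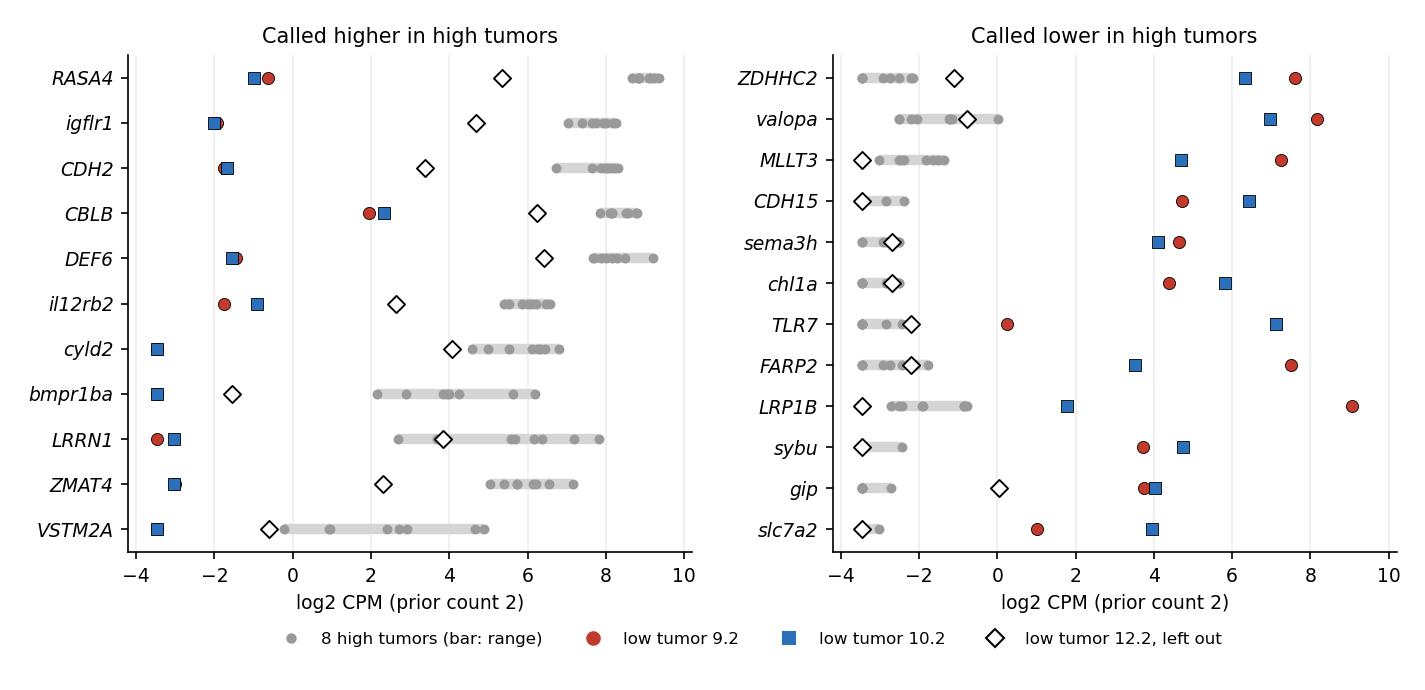
Log2 CPM (prior count 2) of the genes outside the lineage lists with the smallest p-values or the largest further fold changes, called higher (left) or lower (right) in the high tumors by edgeR. Grey points are the 8 high tumors and grey bars their range, red circles are low tumor 9.2, blue squares low tumor 10.2 and open diamonds low tumor 12.2, which entered no test. Both low tumors lie outside every grey bar, while 12.2 lies between the groups for RASA4 (5.35) and at the high tumors for MLLT3 (-3.46).

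Of 110 tested regulators of small GTPases, 14 rose (12.7%, beside 3.58% of all genes) and 6 fell (5.45%, beside 3.83%) in the high tumors relative to the low, with a median log2 fold change of 0.22 beside 0.10 over all genes tested. Besides RASA4, VAV3 (ENSDARG00000075962), a GTPase exchange factor of lymphocytes, had 4.61, 5.46 and 5.83 log2 CPM in the high tumors, 0.72 in 9.2 and 1.15 in 10.2, and is given with no test because it is also on the list of B-cell receptor signalling genes. ARHGAP35 (ENSDARG00000062577), a GTPase-activating protein, had 5.62, 5.95 and 6.88, with 9.31 and 8.91 (-2.98 ± 0.29, edgeR adjusted p = 9.93e-05). The groups did not overlap in either gene. The Rap regulator gene rap1gap2b had a smaller difference, 6.07 to 6.56 in the high tumors against 4.20 and 4.95 (1.69 ± 0.26, edgeR adjusted p = 0.00224). Tumor 12.2 was within the high range for that gene, at 6.25.

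G-protein coupled receptors, G-protein subunits and phospholipases moved in both directions. Of 138 tested, 17 were higher (12.3%, beside 3.58% of all genes) and 12 lower (8.7%, beside 3.83%; median 0.41). One of the 17, PLCG1, is also on the list of T-cell receptor signalling genes. The orphan receptor gene gpr146 had 1.69, 3.18 and 4.22 log2 CPM in the high tumors, 9.74 in 9.2 and 7.79 in 10.2 (-5.90 ± 0.54, edgeR adjusted p = 6.98e-05; -4.62 without 9.2). GNAI2 (ENSDARG00000017294), an inhibitory G-protein subunit used by chemokine receptors, had 7.06, 7.54 and 8.53, with 3.89 and 3.49 (3.99 ± 0.43, edgeR adjusted p = 0.000230). PLD1 (ENSDARG00000056228), a phospholipase D, had -3.46, -2.50 and -1.41, with 4.02 and 2.46 (-6.52 ± 0.78, edgeR adjusted p = 0.000433). GPR158 (ENSDARG00000077134), an orphan receptor known from brain, had -3.46 to -0.69 in the high tumors, with 5.8 and 4.88 (-8.59 ± 1.04, edgeR adjusted p = 0.000497; -10.49 without 8.3). The last 3 symbols are each shared by another identifier, so their levels are uncertain. Each of these genes stayed called whichever tumor was left out.

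Axon guidance molecules, which also steer blood and immune cells, were called in both directions. Of 59 tested, 5 were higher (8.47%, beside 3.58% of all genes) and 8 lower (13.6%, beside 3.83%; median 0.70). The secreted semaphorin gene sema3h had -3.46, -2.79 and -2.50 log2 CPM in the high tumors, 4.64 in 9.2 and 4.10 in 10.2 (-8.70 ± 0.63, edgeR adjusted p = 1.53e-05). NRP2 (ENSDARG00000038446), a receptor for class 3 semaphorins, had -1.94, -0.96 and 0.92, with 7.82 and 7.85 (-8.37 ± 0.70, edgeR adjusted p = 3.56e-05). Another class 3 gene, sema3ga, had -3.46, -2.22 and -0.31, with 3.89 and 4.03 (-6.03 ± 0.83, edgeR adjusted p = 0.00120). In these 3 genes 9.2 and 10.2 were less than 1 log2 unit apart. The 5 members called higher were sema4e, sema6bb, SEMA4G, plxnd1 and RGMB, named here after their values were seen. The 12.2 levels were -2.70 for sema3h, 5.93 for NRP2 and 2.52 for sema3ga. SEMA4B (ENSDARG00000076104), a membrane semaphorin, was also lower (-3.78 ± 0.53, edgeR adjusted p = 0.00135). Both SEMA4B and NRP2 are symbols shared with another identifier. Each of these 4 genes stayed called whichever tumor was left out.

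Of 45 homing and adhesion genes tested, 8 were higher (17.8%, beside 3.58% of all genes) and 2 lower (4.44%, beside 3.83%), with a median of 2.26. However, CCR7, cd99 and both CCR9 identifiers among the 8 are also on the T-cell list. The integrin gene itgae.2, whose mammalian product binds lymphocytes to epithelium, had 7.47, 8.69 and 8.95 log2 CPM, with -0.89 in 9.2 and 0.23 in 10.2 (8.91 ± 0.70, edgeR adjusted p = 2.41e-05). It stayed called whichever tumor was left out, and 12.2 lay between the groups at 4.47.

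Of 89 ion channel genes tested, 5 were higher and 5 lower (5.62% each way, beside 3.58% and 3.83% of all genes; median 0.47). With limma-voom the split was 4 and 12. The potassium channel gene kcnc4 had 4.26, 5.19 and 5.41 log2 CPM, with -1.20 in 9.2 and -0.46 in 10.2 (6.07 ± 0.50, edgeR adjusted p = 2.97e-05). KCNAB1 (ENSDARG00000008140), a potassium channel subunit, had 3610 counts against 2, which gave a 682.7-fold ratio with an exact 95% Poisson interval of 188.9 to 5639. The calcium-release channel gene ITPR1 (ENSDARG00000074149, a shared symbol) had -0.07, 0.93 and 1.89, with 4.28 and 4.24 (-3.19 ± 0.48, edgeR adjusted p = 0.00200). The voltage-gated calcium channel gene CACNA1E (ENSDARG00000062346) had 5.12 in 10.2 and -0.56 in 9.2, with 3 counts over the high tumors, and was not called without 10.2.

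Enzymes and carriers of glucose metabolism included several genes called higher. Of 29 tested glycolysis genes, 5 were higher (17.2%, beside 3.58% of all genes) and 0 lower (beside 3.83%), with a median of 0.85. Among so few members, 0 lower calls is near the share over all genes. At an unadjusted p under 0.05, 2 were lower, and 0 were called lower by DESeq2 and limma-voom. The glucose transporter gene slc2a3b had 2.92, 5.67 and 6.19 log2 CPM, with 1.71 in 9.2 and 0.85 in 10.2 (4.13 ± 0.88, edgeR adjusted p = 0.0157). PKM (ENSDARG00000099730), a pyruvate kinase with a shared symbol, had 8.34, 9.01 and 9.36, with 7.63 and 7.62 (1.28 ± 0.30, edgeR adjusted p = 0.0233). LDHA (ENSDARG00000101251), which makes lactate, had 7.23, 8.46 and 8.76, with 5.15 and 6.64 (2.2 ± 0.54, edgeR adjusted p = 0.0323). The groups did not overlap in these genes, but all 3 calls were lost without 9.2, the first 2 also without 10.2, and that of LDHA also without 4.3.1, 15.2, 13.1.1 or 7.2.1. The 12.2 levels of PKM (9.32) and LDHA (8.54) were within the high range.

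Of 40 cytokine receptor and JAK-STAT genes tested, 4 were higher, a larger share than the 3.58% of all genes. The 1 lower gene made up 2.5%, beside 3.83% of all genes, and the median was 0.14. One of the 4 higher genes, il7r, is also on the T-cell list. The kinase gene jak2a had 6.51, 6.80 and 7.54 log2 CPM, with 2.51 in 9.2 and 4.81 in 10.2 (2.82 ± 0.55, edgeR adjusted p = 0.0102). A feedback inhibitor gene, SOCS3 (ENSDARG00000026611, a shared symbol), had 4.57, 5.37 and 6.05, with 3.25 and 2.02 (2.66 ± 0.46, edgeR adjusted p = 0.00471), not called without 10.2. Among chromatin genes, 4 of 54 were higher (7.41%, beside 3.58% of all genes) and 2 lower (3.7%, beside 3.83%), with a median of 0.16. One of the 4, SATB1, is also on the T-cell list. Class IIa histone deacetylases went both ways: HDAC7 (ENSDARG00000105179), known in mammalian thymocytes, had 7.33 to 8.71 against 4.33 and 2.60 (4.39 ± 0.58, edgeR adjusted p = 0.000956), and HDAC4 (ENSDARG00000098349) had 4.79 to 5.92 against 7.03 and 7.23 (-1.82 ± 0.25, edgeR adjusted p = 0.00122). Both stayed called whichever tumor was left out.

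Of 17 tested genes of antigen receptor recombination, 1 was higher (5.88%, beside 3.58% of all genes). It was polm, a polymerase that fills in at DNA joins, with 5.67, 7.51 and 8.16 log2 CPM against 2.81 and 2.12 (5.06 ± 0.68, edgeR adjusted p = 0.00105). No cell cycle gene was called by edgeR (0 of 50, beside 3.58% higher and 3.83% lower over all genes). At an unadjusted p under 0.05, 1 was higher and 1 lower, and 0 were called by DESeq2 and limma-voom. No ribosomal protein gene was called by edgeR either (0 of 80, beside the same shares). At an unadjusted p under 0.05, 6 were higher and 0 lower, and 1 was called by DESeq2 and 0 by limma-voom. The member with the smallest p was aurka among the cell cycle genes, a mitotic kinase gene (1.49 ± 0.62, edgeR adjusted p = 0.195), with 0.99 in tumor 8.3 and 2.84 or more in the other high tumors. RPL5 (ENSDARG00000020197) had 10.77 to 11.76, with 10.74 and 10.35 (0.80 ± 0.29, edgeR adjusted p = 0.133). A miss of the threshold does not show that levels were equal. In the lists not yet named, calls were 3 higher and 3 lower of 32 neuronal genes, 1 and 3 of 27 progenitor genes, 2 and 0 of 29 NOTCH genes, 1 and 0 of 43 apoptosis genes, 0 and 2 of 39 neutrophil and macrophage genes and 0 and 1 of 17 red cell genes. Beside the 3.58% and 3.83% over all genes, these shares ran from 0 to 9.38% higher and from 0 to 11.1% lower, on few members.

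Early response genes, which rise when cells are handled or stimulated, were called higher in 2 of 33 (6.06%, beside 3.58% of all genes; median 2.68), against 19 with DESeq2 and 2 with limma-voom. Over the list the summed level was 6039 to 15840 CPM in the high tumors, 2313 in 9.2 and 2638 in 10.2, with 8902 in 12.2. The mean log2 CPM over the 28 members with a level in either low tumor overlapped between the groups, at 3.86 in 9.2, 3.85 in 10.2 and 3.8 in the lowest high tumor, 7.2.1. NR4A3 (ENSDARG00000055854), a nuclear receptor of that response, had 5.63, 6.59 and 10.18 log2 CPM, with 1.18 and -0.40 (7.44 ± 1.78, edgeR adjusted p = 0.0274), not called without 9.2 or 10.2. Their part in the other differences was not tested.

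**Figure D2:**
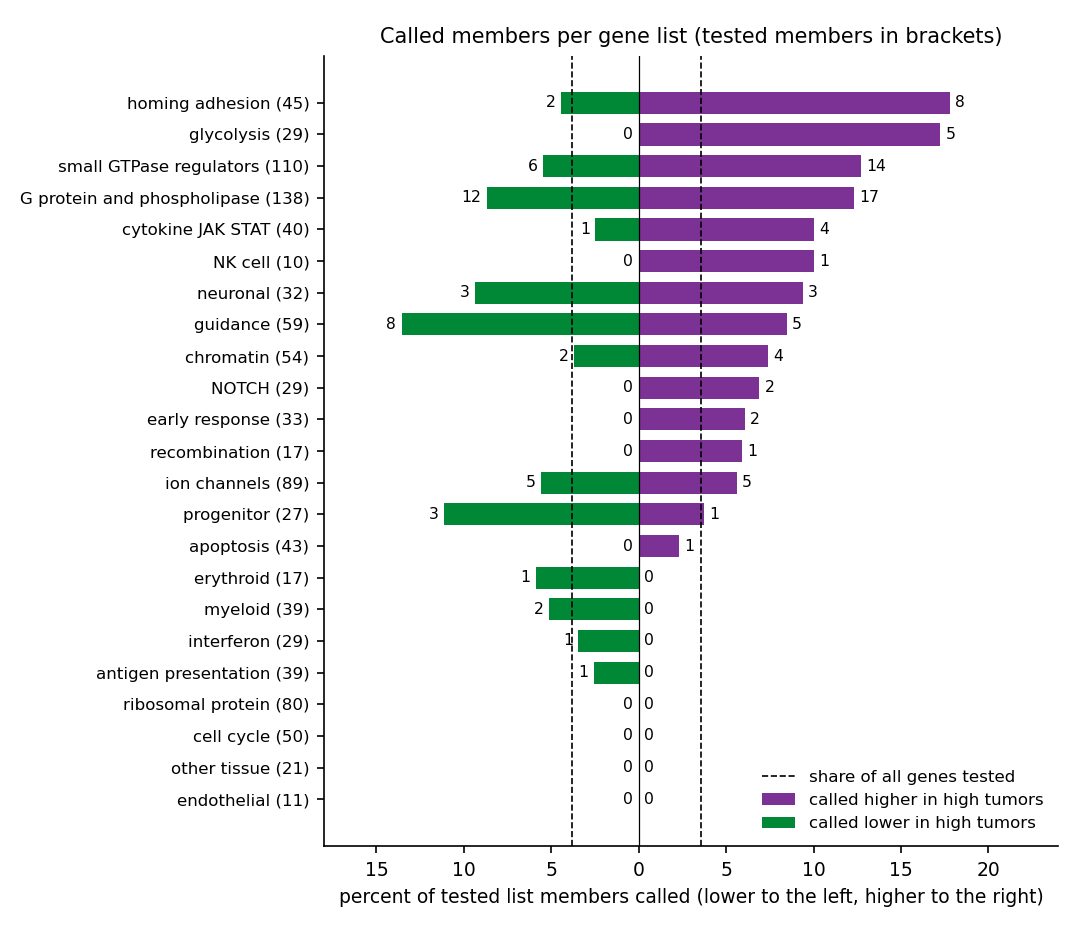
Percent of the tested members of each gene list that edgeR called higher (purple, to the right) or lower (green, to the left) in the 8 high tumors against low tumors 9.2 and 10.2. Numbers at the bars are called members, numbers in brackets are tested members, and dashed lines mark 3.58% and 3.83%, the shares of all genes tested. Homing, GTPase, G-protein and guidance lists reach past the lines, and cell cycle and ribosomal protein genes have no call. The lineage lists are not drawn, but members they share with other lists are counted in these bars. Such members include CCR7, cd99 and both CCR9 identifiers (homing), VAV3 (GTPase) and PLCG1 (G-protein).

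The 2 low tumors disagreed with each other in 1245 of 12676 genes (9.82%) that had a log2 CPM of at least 1 in either. A gene counted as apart when the tumors differed by at least 4-fold and both libraries of the higher tumor lay above both of the other. There were 408 genes higher in 9.2 (3.22%) and 837 higher in 10.2 (6.6%). With 1 tumor a side there is no test of these differences. The same measure between pairs of the 6 high tumors with 2 libraries gave 6.29% to 18.9%, with a median of 12.4%, and 12 of 15 pairs were further apart than 9.2 and 10.2. The 5 pairs with tumor 8.3 were the furthest apart, at 15.7% to 18.9%. Tumor 12.2 was nearer to 10.2 in 606 of the 837 genes higher in 10.2 (72.4%) and in 265 of the 408 higher in 9.2 (65.0%).

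**Figure D3:**
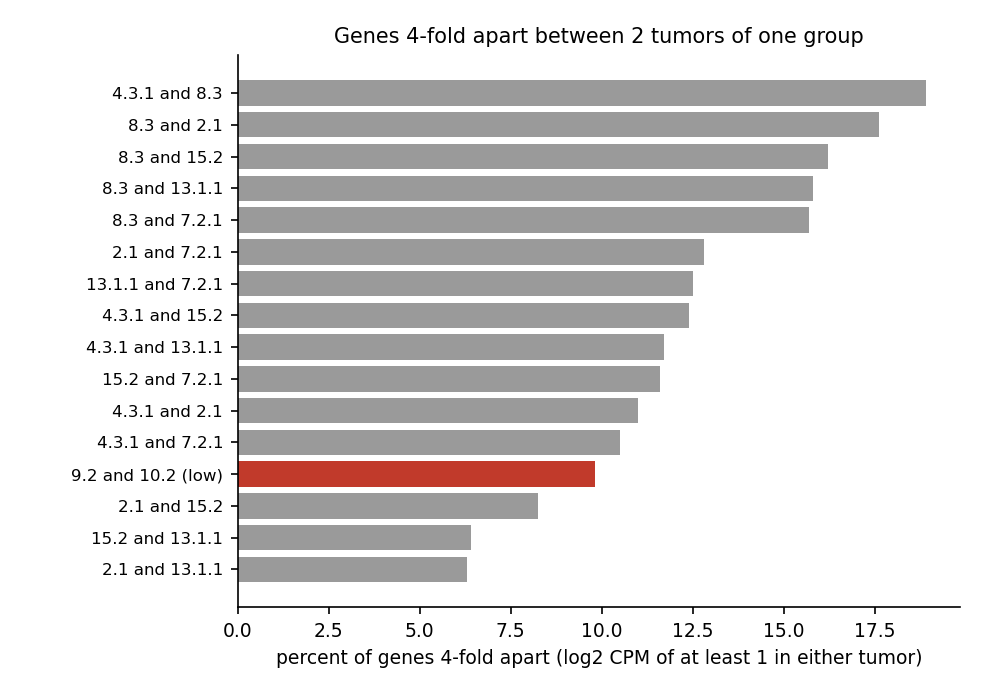
Percent of genes that were 4-fold apart between 2 tumors, for the 15 pairs of high tumors with 2 libraries (grey) and for low tumors 9.2 and 10.2 (red). The low pair, at 9.82%, lies below 12 of the 15 high pairs, whose values run from 6.29% to 18.9%.

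Of the genes called between the sets, 56 of the 604 higher ones (9.27%) and 156 of the 645 lower ones (24.2%) were also 4-fold apart between the low tumors, beside 9.82% of all genes with a level. These shares have unlike bases. A called gene with a log2 CPM under 1 in both low tumors could not count as apart, yet it is among the 604 or 645. RASA4, at -0.63 in 9.2 and -0.99 in 10.2, is such a gene among the higher ones. The shares are therefore not compared. The median absolute log2 difference between 9.2 and 10.2 was 0.64 over the higher and 0.91 over the lower genes. Only 9.2 lay above the high tumors in 1021 tested genes and below them in 1333, and only 10.2 in 1302 and 1277. In 72 genes 9.2 was above and 10.2 below every high tumor, and in 113 it was the reverse. No smallest gap was asked for, so in genes with few counts these positions can rest on few counts. Both lay within the high range in 8585.

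**Figure D4:**
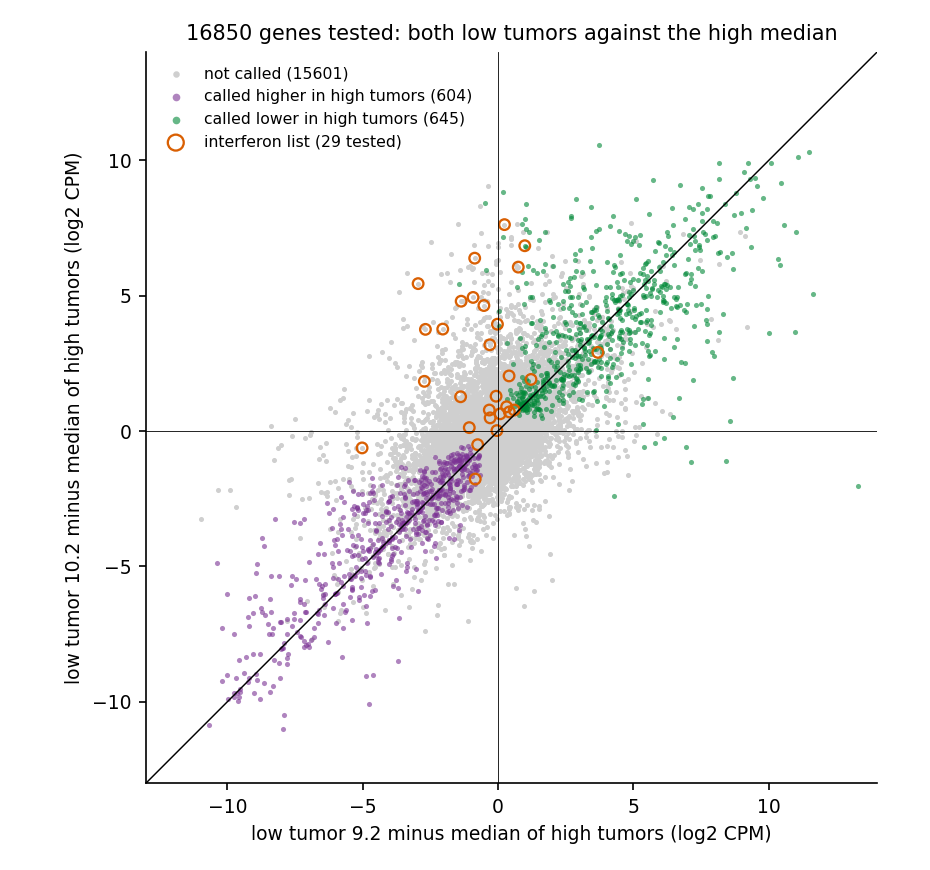
Log2 CPM of low tumor 9.2 (horizontal) and of low tumor 10.2 (vertical), each minus the median of the 8 high tumors, for the 16850 genes tested; the diagonal marks equal differences. Purple points are the 604 genes called higher and green points the 645 called lower in the high tumors, and orange rings are the 29 tested interferon genes. A call favours genes in which both low tumors differ from the high tumors alike, so called genes lie toward the diagonal by selection. Of those called lower, 24.2% were still 4-fold apart between the low tumors. Many interferon genes sit higher for 10.2 than for 9.2.

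Interferon response genes were the list most often higher in 10.2. Interferons are cytokines of antiviral defence that switch on Mx, Ifit and related antiviral proteins. Of 30 such genes with a log2 CPM of at least 1 in either low tumor, 16 were at least 4-fold higher in 10.2 (53.3%, beside 6.6% of all genes) and 0 in 9.2. Apart from mxa and mxe, the examples were chosen after their values were seen. The dynamin-like gene mxa stood at 6.04 in 10.2 and -2.36 in 9.2, with -3.46, 0.59 and 4.99 in the high tumors. The ubiquitin-like modifier gene isg15 stood at 8.15 and 2.34, with 2.47, 4.38 and 6.46. Of the 16 genes, 13 were higher in 10.2 than in any high tumor, 14 had 9.2 within the high range, and 15 had 12.2 nearer to 10.2. Averaged over the 30 genes, the level was 5.60 in 10.2, 2.47 in 9.2 and 4.84 in 12.2, and ran from 1.65 in 7.2.1 to 4.48 in 4.3.1 among the high tumors. The high tumors thus varied widely too. Only mxe of the 16 was called between the sets (-4.85 ± 1.17, edgeR adjusted p = 0.0292), a call lost without 10.2, where its log2 fold change was 0.11, and without 8.4.1.1.1 or 7.2.1.

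Antigen presentation genes followed the same order in fewer members. Of 38 with a level in either low tumor, 6 were at least 4-fold higher in 10.2 (15.8%, beside 6.6% of all genes) and 0 in 9.2 (beside 3.22%). In examples again chosen after their values were seen, the class II gene mhc2daa stood at 9.59 in 10.2 and 7.34 in 9.2, with 2.71, 6.68 and 7.40 in the high tumors. Its transactivator gene ciita stood at 6.87 and 4.22, with 2.19, 3.46 and 5.75, and the invariant chain gene cd74a at 9.34 and 6.99, with 2.85, 6.57 and 7.54. In these 3 genes 10.2 lay above every high tumor and 9.2 within their range. The gene cd74a is also on the B-cell list. Class II paralogues may share reads, so each level is uncertain. The class I gene mhc1laa alone was called, at 2.43 to 2.93 against 3.82 and 3.75 (-1.08 ± 0.27, edgeR adjusted p = 0.0325). That call was lost without 8.4.1.1.1, 13.1.1, 7.2.1, 9.2 or 10.2.

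Markers of other cells also differed between the low tumors. Of 21 neutrophil and macrophage genes with a level, 6 were at least 4-fold higher in 10.2 (28.6%, beside 6.6% of all genes) and 0 in 9.2. In 5 of the 6 it was 9.2 that lay below every high tumor, and in 1 it was 10.2 that lay above. The scavenger receptor gene marco stood at 3.47 in 10.2 and -0.80 in 9.2, against 0.12 to 5.12 in the high tumors. The complement gene c1qa stood at 1.48 and -1.44, against -1.20 to 4.52. Both were chosen after their values were seen. The mean level over the 21 myeloid genes was 3.79 in 10.2, 2.46 in 9.2 and 2.2 to 4.55 in the high tumors. Over all 43 matched genes, not kept by level, it was 1.12, 0.22 and 0.46 to 2.65. Over the 21 genes the highest tumors were 15.2 (4.55) and 13.1.1 (4.45), whose interferon means were 3.51 and 4.21. Tumor 4.3.1, with the highest interferon mean of the high tumors (4.48), had a myeloid mean of 2.78. Tumor 2.1 had a myeloid mean of 3.08 and an interferon mean of 2.46. The part of such cells in the interferon levels was not tested.

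The genes furthest above 10.2 in tumor 9.2 had varied known roles. The calcium-binding protein gene s100s stood at 12.29 in 9.2 and -3.03 in 10.2, with -3.46, -1.02 and 1.85 in the high tumors. The neural adhesion gene ncam3 stood at 7.49 and -3.03, with 5 counts over the high tumors, and the opsin gene opn7c at 6.07 and -1.68, with 0. The tight-junction gene cgnb stood at 7.69 and -1.83, and SLIT3 (ENSDARG00000034268), a guidance ligand, at 5.57 and -2.70. A second calcium-binding gene, s100u, stood at 6.17 and -2.0. In each of these 6 genes 9.2 was above every high tumor, and 12.2 stood at -3.46. The calls of s100s, cgnb, SLIT3 and s100u as lower in the high tumors were lost without 9.2, and for the first 3 the sign turned (to 4.81, 1.60 and 2.29). The recombinase gene RAG1 (ENSDARG00000052122), an initiator of receptor gene rearrangement picked with its levels already in view, was also higher in 9.2, at 10.94 against 7.61, with 9.5, 11.91 and 12.92 in the high tumors. It was thus below every high tumor in 10.2 and within their range in 9.2.

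Furthest above 9.2 in tumor 10.2 was KYAT3 (ENSDARG00000101791, a shared symbol), an aminotransferase gene, at 7.82 and -1.59, but its high tumors spread from -3.46 to 8.87 and held both values. Among the 10 genes furthest apart were also the peptidase gene ANPEP (ENSDARG00000036809, a shared symbol), at 7.75 in 10.2 and -0.42 in 9.2 with 9.04 to 10.13 in the high tumors, and the calpain gene CAPN10 (ENSDARG00000076634), at 5.57 and -3.0 with 4.57 to 6.03. Tumor 9.2 lay far below the high tumors in both genes, while 10.2 lay below them for ANPEP and among them for CAPN10. The finTRIM genes ftr11 (6.14 and -3.0) and ftr12 (4.76 and -3.0), of a fish family of antiviral proteins, had 10.2 above every high tumor. The giant muscle protein gene obscnb stood at 8.10 and -0.71, and its high tumors spread from -0.64 to 8.99. The cytokine gene il7 stood at 4.0 in 10.2 and -3.0 in 9.2, with -3.46, -3.19 and -0.34 in the high tumors. Its receptor gene il7r, on the T-cell list, was at -2.43 and -3.0, with 3.92, 5.8 and 6.57. The 2 were thus high in different tumors, and 12.2 held both, at 1.97 and 3.78.

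On opposite sides of the high tumors stood genes such as PKP4 (ENSDARG00000045331), a junction protein, at 6.61 in 9.2 and -0.08 in 10.2 with 0.88 to 2.63 in the high tumors. SIPA1L2 (ENSDARG00000061640), a Rap regulator, stood at 5.65 and -0.82, with 1.01 to 4.09. In the reverse order, herc56.2, of an antiviral ubiquitin ligase family, stood at 5.99 in 10.2 and -1.75 in 9.2, with -1.09 to 2.46, and il4i1, an amino acid oxidase of immune cells, at 3.80 and -3.46, with -2.91 to 2.45. For such genes the mean of the low tumors describes neither tumor. Where counts are near none, as for il4i1 in 9.2 (0 counts), the side can rest on few counts. PKP4 was called lower (-3.52 ± 0.86, edgeR adjusted p = 0.0300), but without 9.2 its log2 fold change was 2.30.

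**Figure D5:**
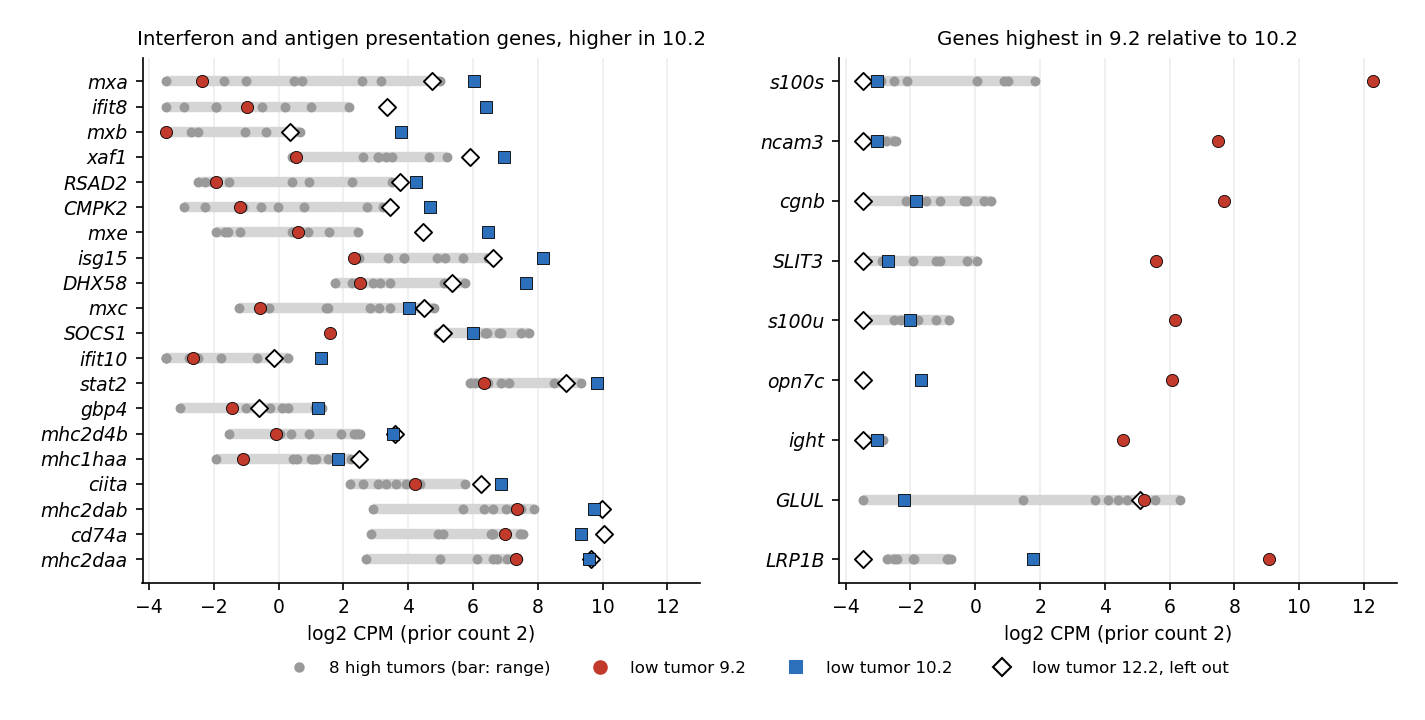
Log2 CPM (prior count 2) of interferon and antigen presentation genes at least 4-fold higher in low tumor 10.2 than in 9.2 (left, tested genes only) and of the genes furthest above 10.2 in 9.2 (right). Grey points are the 8 high tumors and bars their range, red circles 9.2, blue squares 10.2 and open diamonds 12.2, which entered no test. On the left 9.2 lies left of 10.2 in every gene, as for mxa at -2.36 and 6.04, with 12.2 at 4.73. On the right 9.2 lies above the bars, as for s100s at 12.29, except for GLUL, where its 5.22 is within the high range.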

How the data were processed

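The authors deposited raw featureCounts counts per gene for 20 libraries of 11 tumors, made with STAR, Picard and featureCounts on GRCz10, per the submitters' processing notes. Not given in the sources used here were the tools' versions, the annotation release and strandedness. The libraries of a tumor were summed (11573276 to 32466048 counts per tumor), which made the tumor the replicate. Genes passing filterByExpr were tested with edgeR 4.0.16 (R 4.3.3; TMM factors, quasi-likelihood test, Benjamini-Hochberg adjustment over all 16850 genes, threshold 0.05). Levels are log2 CPM with a prior count of 2. DESeq2 1.42.0 and limma 3.58.1 (voom) were alternatives. The fitting code was tested on simulated data.

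Members and gene lists were chosen with earlier results of these data known. Genes were named by rule: the 8 with the smallest p and 6 further with the largest fold in each direction, up to 4 called members per list (2 where none was called), the 10 furthest apart between 9.2 and 10.2 in each direction, the 4 called ones furthest apart, and the 4 with the widest span on opposite sides of the high tumors. Genes that an earlier account had described were passed over, and other examples are marked as chosen after their values were seen. Of 992 list entries, 81 matched no symbol, and 29 matches to another gene were left out. T-cell and B-cell genes carry no test. A symbol came with 81.82% of identifiers. The same numbers on libraries of different tumors did not pair them (correlation of deviations -0.0342 to 0.133). No sequences were read. Some genes are not reported here.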

Additional observations from a re-analysis of the deposited data

Results flagged for a closer look

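Of 124 named genes checked, 16 had a high tumor whose log2 CPM stood far from the other 7, by a gap test that chance passes in about 1 in 20 groups. In 4 of the 16 the other 7 tumors tied at no count, so that any count in 1 tumor passes, which leaves 12. Tumor 8.3 was the one apart in 10 of the 16, or 7 of the 12. It was below the others for CDH2 (6.72, next 7.65), rorc (6.54, next 7.76), VAV3 (4.61, next 5.27), polm (5.67, next 7.01), aurka (0.99, next 2.84) and ANPEP (9.04, next 9.62). It was above the others for GPR158 (-0.69, next -2.5; ENSDARG00000077134, a shared symbol) and, among the ties, for sybu (-2.44), gip (-2.71) and slc7a2 (-3.03), at 1 to 3 counts each. Tumor 14.1.1.1 was above the others for the red cell anion exchanger gene SLC4A1 (-0.73; ENSDARG00000024560, one of 2 identifiers with this symbol, so uncertain) and below them for the calpain gene capn2b (-0.95, next 1.71). Tumor 8.4.1.1.1 was above for the elastase gene ela2 (2.42, next -0.38), tumor 4.3.1 below for SYT11 (0.11, next 4.62), tumor 2.1 above for jak2a (7.54, next 6.97) and tumor 13.1.1 above for ight (-2.85), also a tie. Their causes were not tested.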

How the results depend on the processing

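Counts of genes higher and lower in the high tumors (604 and 645) became 1566 and 1048 with DESeq2 (59.91% of calls higher, against 48.36%) and 240 and 328 at an adjusted p under 0.01. With limma-voom they were 516 and 862 (37.45% higher). Other scalings, filters, thinning, the first library alone and 12.2 added or as its own group kept both counts within 1.5 times. Leaving out 1 tumor gave 260 to 698 higher and 392 to 835 lower. Genes with both low tumors beyond the high range numbered 3269 to 3862 when 1 high tumor was left out. Without 9.2 or 10.2 only 1 low tumor had to lie beyond that range, which held for 5911 and 5686 genes respectively. Genes higher in 9.2 (408) numbered 1179 at 2-fold, 189 at 8-fold and 219 at a log2 CPM of at least 3, and those higher in 10.2 (837) numbered 1809, 495 and 459. Interferon genes among the latter were 20, 15 and 13.

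With libraries as units, counts were 2588 and 1975, and with a replicate block 2392 and 1875; these treat libraries of 1 tumor as independent, and the numbers pair no tumors.

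Leaving out 1 tumor turned the sign of 9 log2 fold changes among named genes that were called; uncalled genes, such as mxa, turned too. Without 10.2 or 9.2 respectively, the highest and lowest values were 1.84 and -6.14 for CADM1, 0.11 and -5.83 for mxe, 1.81 and -6.81 for il7, 1.36 and -5.73 for CSRP1, and 0.34 and -6.51 for ifi44c2. Without 9.2 or 10.2 respectively, they were 4.81 and -12.19 for s100s, 1.6 and -8.4 for cgnb, 2.29 and -7.11 for SLIT3, and 2.3 and -4.51 for PKP4. The cause was not tested. Among named genes, 117 further values lost their call, and 35 gained one. With 2 low tumors, small differences were not detectable.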

Other observations

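Genes of cell death also differed between the low tumors, in examples chosen after their values were seen. The cell death genes bbc3 (1.16 log2 CPM in 9.2 and 5.00 in 10.2) and bik (0.26 and 3.99) stood higher in 10.2. The survival genes bcl2l10 (8.25 and 5.57) and mcl1b (6.88 and 4.42) stood in the reverse order. Of 35 such genes with a level in either low tumor, 6 were at least 4-fold higher in 10.2 and 2 in 9.2, beside 6.6% and 3.22% of all genes. None of these 4 genes was called between the sets by edgeR, and with 1 tumor a side the difference between 9.2 and 10.2 has no test.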
